A study of Mus musculus with 20 samples.

Results

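In mouse embryonic fibroblasts, Flag-tagged histone H3.3 was called in 28212 regions on chromosomes 1 to 19 and X of wild-type (WT) cells. Of these, 7425 were overlapped by no H3.3-Flag region called in cells lacking PML (KO). The regions were chosen by the deposited H3.3-Flag calls alone: a region counted as called only in WT when no KO H3.3-Flag region overlapped it by as much as 1 bp, and such regions made up 26.3% of the WT regions. The other 20787 WT regions were touched by a KO region. In the opposite direction, 2751 of 20641 KO regions touched no WT region. The H3.3-Flag lists themselves differed between genotypes. The WT regions covered 286.2 Mb at a median signal of 36.02, and the fewer KO regions covered 305.5 Mb at 15.86. The counts of 7425 and 2751 therefore do not measure a net loss of H3.3 in KO. Because absence from the KO list chose the regions called only in WT, their number and their lack of KO signal describe the choice and are not a test of the genotype.

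The cells were C57BL/6 fibroblasts of passages 10 to 15, either WT or Pml-null. Chromatin immunoprecipitation (ChIP) used 6 targets, with 1 library per target and genotype: H3.3 with a Flag tag, H3.3 with an HA tag, H3K9me3, H3K27me3, H3 and PML. The tagged H3.3 was introduced into both genotypes by transfection, so the H3.3 lists record a histone supplied from outside and not the cells' own protein. RNA came from native cells as 3 numbered replicates per genotype, pooled by the authors into 1 table each, and as 1 unnumbered sample per genotype. Each comparison therefore had 1 value per genotype and no replicate spread, and no p-value is given. Sequencing depth is unknown for all libraries, and 95% Wilson intervals of shares cover counting error only, treating regions as independent.

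H3.3 is a histone H3 variant that is placed into chromatin outside DNA replication. The HIRA complex places it at active genes, and the DAXX and ATRX chaperones place it at heterochromatin. PML is the scaffold of PML nuclear bodies, in which DAXX and ATRX gather. H3K9me3 marks constitutive heterochromatin, and H3K27me3 is written by Polycomb repressive complex 2.

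Regions called only in WT were found at different kinds of gene start, and 4 are printed because the results below return to them. The sequences are the 250 bases before the RefSeq start (GRCm38.p6, the patched form of mm10), 5′ to 3′ on the gene's strand, and each start lies in a region called only in WT. Capitals mark CG in the first 3 and the TATA box letters TATAAA in the last. Cdkn2b, which codes for the cell cycle inhibitor p15, lies on the minus strand (chr4:89311033-89311282). Plagl1, an imprinted zinc finger gene, lies on the plus strand (chr10:13090582-13090831), as do Slc25a5, the mitochondrial ADP/ATP carrier (chrX:36795347-36795596), and Sprr2k, a gene of the small proline-rich family of the skin barrier (chr3:92432332-92432581).
Cdkn2b: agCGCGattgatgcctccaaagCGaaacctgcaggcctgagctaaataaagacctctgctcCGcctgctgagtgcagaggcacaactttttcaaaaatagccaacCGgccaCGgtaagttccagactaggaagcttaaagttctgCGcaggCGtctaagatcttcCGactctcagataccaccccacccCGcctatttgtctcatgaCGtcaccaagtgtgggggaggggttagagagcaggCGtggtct
Plagl1: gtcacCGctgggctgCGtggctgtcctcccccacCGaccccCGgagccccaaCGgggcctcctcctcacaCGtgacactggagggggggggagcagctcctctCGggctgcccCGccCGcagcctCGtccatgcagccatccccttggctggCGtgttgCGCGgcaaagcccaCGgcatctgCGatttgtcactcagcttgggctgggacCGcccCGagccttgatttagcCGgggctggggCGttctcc
Slc25a5: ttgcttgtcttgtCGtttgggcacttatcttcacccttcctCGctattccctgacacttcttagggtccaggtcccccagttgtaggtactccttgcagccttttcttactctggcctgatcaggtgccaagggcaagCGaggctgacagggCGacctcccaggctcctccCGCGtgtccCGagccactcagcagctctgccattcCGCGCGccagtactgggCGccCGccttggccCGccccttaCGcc
Sprr2k: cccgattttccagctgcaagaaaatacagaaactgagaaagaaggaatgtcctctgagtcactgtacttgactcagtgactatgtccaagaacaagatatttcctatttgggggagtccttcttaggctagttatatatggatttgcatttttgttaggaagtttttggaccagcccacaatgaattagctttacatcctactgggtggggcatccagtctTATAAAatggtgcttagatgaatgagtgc
The Plagl1 stretch holds 19 CG in 70.4% G and C, that of Slc25a5 14 and that of Cdkn2b 12. The Sprr2k stretch holds 1 CG in 40.8% G and C, with 1 TATAAA near its end.

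The regions called only in WT were short. Their median length was 2 kb (quartiles 2 and 4 kb, longest 88 kb), against 5 kb (longest 521 kb) for the WT regions touched in KO. Together they covered 25.8 Mb, which was 9.01% of the WT H3.3-Flag length. The share called only in WT was 51.2% of regions under 2 kb, 35.3% from 2 to under 5 kb, 18.8% from 5 to under 10 kb and 5.61% at 10 kb and over. A longer region offers more bases for a KO region to touch, so part of this order follows from the rule itself.

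Their WT signal, the authors' deposited value per region, had a median of 34.5 (12.1 to 225.1), close to 36.8 in the touched regions. Shorter regions carried higher signals, however, and within each length class the regions called only in WT had the lower median. It was 54 against 65 under 2 kb, 34 against 45 from 2 to under 5 kb, 22.1 against 32.4 from 5 to under 10 kb, and 18.2 against 27.3 at 10 kb and over. Among regions of exactly 2 kb, split into 4 classes of equal size by WT signal, 63.8% of the lowest class were called only in WT, against 13.3% of the highest. Multiplied by a region's number of 1 kb bins, the signal was whole for every WT region on chromosomes 1 to 9 and X, and for 34.8% on chromosomes 10 to 19. The difference in median signal was of the same direction in both sets of chromosomes (34.1 against 36.2, and 34.7 against 37.8).

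**Figure D1:**
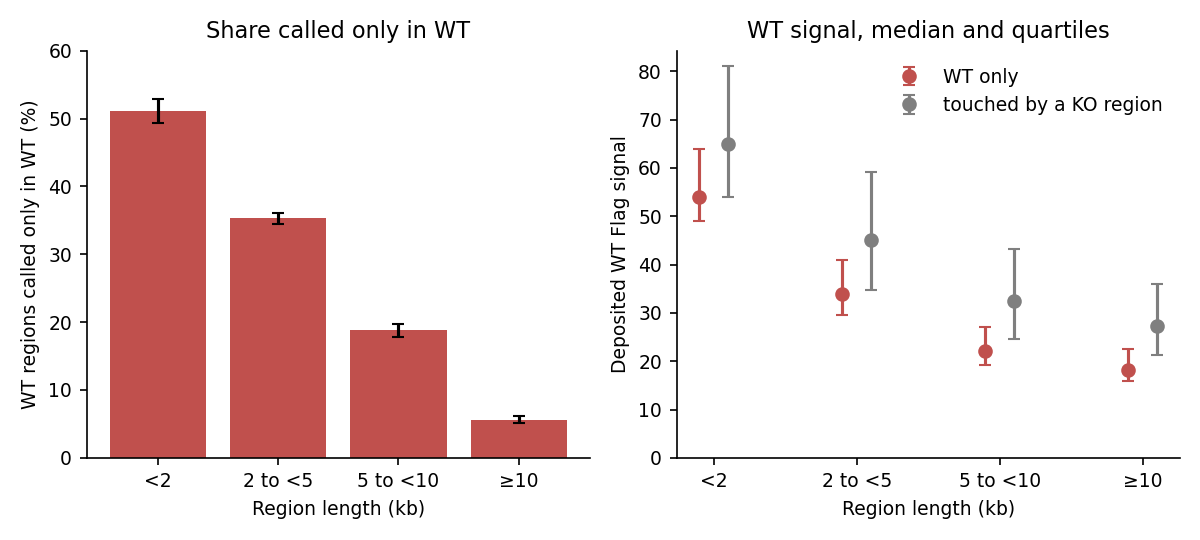
Left, the share of WT H3.3-Flag regions called only in WT by region length in kb, with 95% Wilson intervals. Right, the median and quartiles of the deposited WT signal for regions called only in WT and for regions touched by a KO region. The share falls from 51.2% to 5.61% with length, and the median signal is lower in the regions called only in WT in each of the 4 length classes.

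Most of these regions lay well away from the nearest KO H3.3-Flag region. The median distance was 28 kb (quartiles 13 and 63 kb), and 1105 were over 100 kb away. At the threshold, 2 regions abutted a KO region end to end, and 304 lay 1 to 5 kb from one. Of the touched regions just inside it, the smallest overlap was 1000 bp, which is 1 bin of the deposited lists. The least overlapped was chr3:123566001-123623000, a 57 kb region with a signal of 15.2, of which 1.75% was covered in KO. In all, 1615 touched regions were covered over less than 0.5 of their length in KO, while 63.0% were covered whole.

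The regions were spread over all 20 chromosomes. The share of WT regions called only in WT was lowest on chromosome 5, at 21.4% (95% interval 19.4% to 23.5%), and highest on X, at 34.4% (30.5% to 38.4%). Chromosomes 15 (32.4%) and 4 (31.9%) came next. Xist, the RNA that coats the inactive X, was listed in the numbered RNA tables at 19.5 FPKM (fragments per kilobase, scaled to the reads of a library) in WT and 0.0517 in KO, and the Y-linked Ddx3y at 0.0384 and 7.67. In the unnumbered tables Xist stood at 5.89 and 8.25 and Ddx3y at 21.7 and 11.4. The part of cell sex in the share on X was not tested, since the ChIP and RNA samples cannot be matched one to one.

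H3.3-HA was the readout closest to the rule without having been used by it. WT H3.3-HA regions touched 317 of the 7425 regions called only in WT, which is 4.27% (95% interval 3.83% to 4.75%), against 29.3% (28.7% to 29.9%) of the regions touched in KO and 22.7% of all WT H3.3-Flag regions. Read the other way, 4.95% of WT Flag regions with WT HA and 32.6% of those without it were called only in WT. The HA share was lower in every length class, from 0.989% against 4.83% under 2 kb to 12.2% against 55.1% at 10 kb and over.

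Matching on length and signal narrowed the gap in WT H3.3-HA. Regions of 1, 2 and 3 kb were each divided into 4 equal classes of WT signal, which gave 12 classes with 5228 regions called only in WT and 7579 touched in KO. WT HA touched a smaller share of the regions called only in WT in all 12 classes, with intervals that did not overlap in 7. At 2 kb, the values were 2.13% against 4.81% in the lowest signal class and 6.40% against 18.9% in the highest.

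In KO cells, H3.3-HA touched 12.5% of the regions called only in WT and 23.7% of the touched regions, against 20.8% of all WT Flag regions. The KO share of 12.5% was larger than the WT share of 4.27%, and 846 regions had HA in KO alone, 233 in WT alone and 84 in both. The KO HA list differed in kind from the WT list: its 1758 regions covered 390 Mb at a median signal of 1.48, while the 6729 WT regions covered 73.5 Mb at 16.0. The KO HA regions over these sites had a median length of 306.5 kb and a median signal of 0.727. When only HA regions with a signal of at least 3 counted, KO HA touched 0.943% of the regions called only in WT and 3.45% of the touched regions, and WT HA 4.11% and 28.8%. The direction between genotypes thus turned with this minimum, whereas the regions called only in WT stayed below the touched regions under both.

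**Figure D2:**
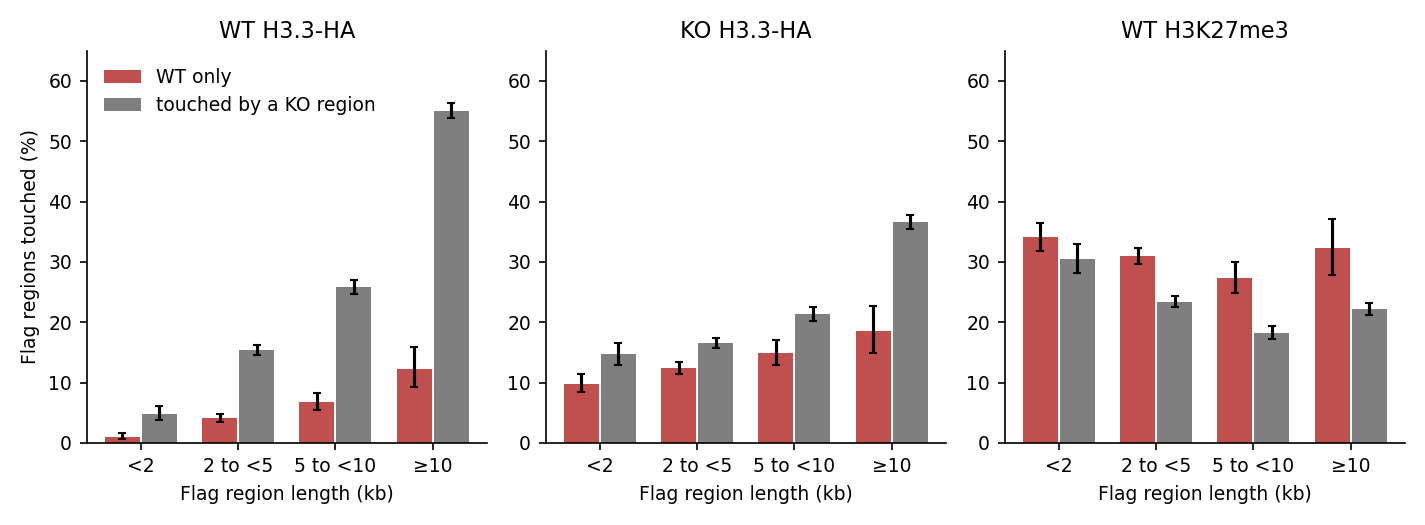
The share of WT H3.3-Flag regions touched by WT H3.3-HA, KO H3.3-HA and WT H3K27me3, by Flag region length in kb, with 95% Wilson intervals, for regions called only in WT and regions touched by a KO region. For WT H3.3-HA the share is 12.2% against 55.1% at 10 kb and over, and it is lower for the regions called only in WT in each length class.

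H3K27me3 was the mark most often found at these regions. Its lists were broad, covering 988.9 Mb in WT and 1042 Mb in KO. The share of the chromosomes that they take was not computed, so the values compare Flag regions with each other only. H3K27me3 touched 31.1% (30.1% to 32.2%) of the regions called only in WT in WT cells, against 22.3% (21.7% to 22.9%) of the touched regions and 24.6% of all. In KO it touched 27.7% (26.6% to 28.7%), against 15.7% (15.2% to 16.2%) and 18.8%. By length, WT H3K27me3 covered 25.1% of their bases and 8.90% of those of the touched regions, and KO H3K27me3 covered 23.4% and 6.46%. In the 12 classes matched on length and signal, the KO share was higher for the regions called only in WT in all 12, with intervals apart in 4. The WT share was higher in 11, with intervals apart in 0.

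The H3K27me3 calls at single regions mostly stayed in place between genotypes. Of the 7425 regions, 1563 were touched in both genotypes, 747 in WT alone, 490 in KO alone and 4625 in neither. The H3K27me3 regions that touched them were long, with median lengths of 106 kb in WT and 142 kb in KO, against 18 and 16 kb for all H3K27me3 regions.

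H3K9me3 touched 14.4% (13.6% to 15.2%) of the regions called only in WT in WT cells, against 15.8% (15.3% to 16.3%) of the touched regions and 15.4% of all. In KO it touched 18.1% (17.3% to 19%), against 16.3% (15.8% to 16.8%) and 16.8%. The order in WT turned with length: by class, from under 2 kb to 10 kb and over, the WT shares were 15.2% against 13.4%, 12.9% against 11.6%, 14.9% against 10.6% and 27% against 25.7%, all higher in the regions called only in WT. By bases covered, H3K9me3 took 12.3% of their length against 7.34% in WT, and 16.2% against 10.4% in KO. In the 12 classes matched on length and signal, the WT share was higher for the regions called only in WT in 8 and lower in 4, with intervals apart in 1. More of these regions had H3K9me3 in KO alone (800) than in WT alone (522), and 545 had it in both. The WT count rested on faint calls: with a signal of at least 3 the WT share was 6.14%, against 9.38% of the touched regions, while the KO share was 18.0%, against 16.3%. Of all WT H3K9me3 regions 58.2% reached that signal, and of the KO regions 99.8%, so this minimum removed different shares of the 2 lists.

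In WT cells, 61.0% of the regions called only in WT had neither methylation mark, against 67.2% of the touched regions, 24.6% had H3K27me3 alone, 7.87% H3K9me3 alone and 6.51% both. In KO cells, the same regions had neither mark in 65.3%, against 74.0% of the touched regions, and H3K9me3 alone in 7.07%. H3K27me3 alone stood at 16.6% in KO (touched regions 9.70%), and both marks together at 11.0% (touched regions 6.00%). Histone H3, used here as a list of broad calls, touched 14.3% of the regions called only in WT and 14.9% of the touched regions in WT (14.7% of all), and 20.9% and 26.6% in KO (25.1% of all).

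**Figure D3:**
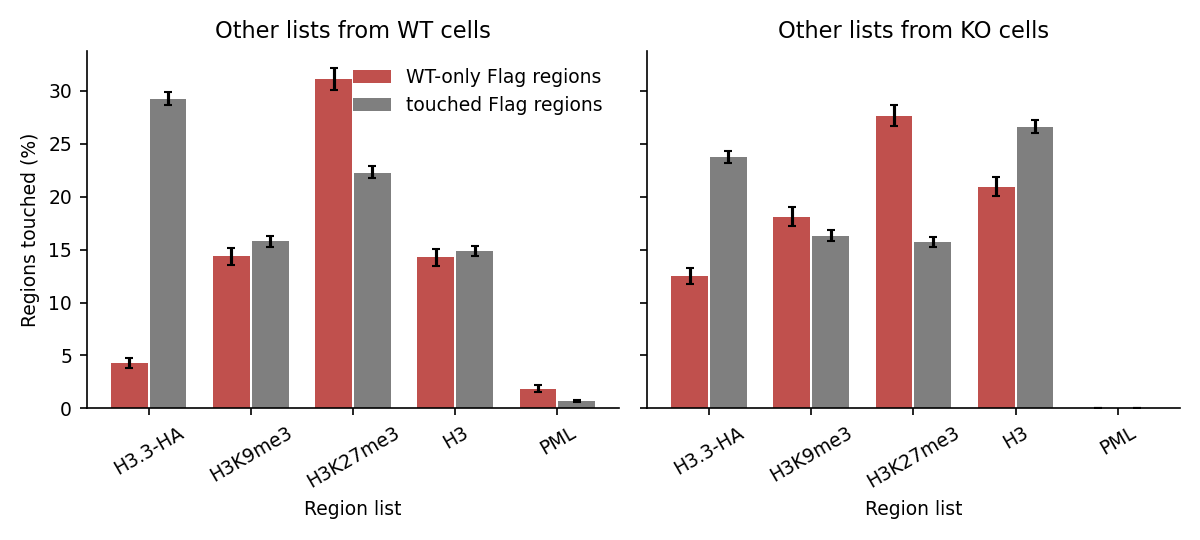
The share of WT H3.3-Flag regions touched by each other region list from WT cells (left) and KO cells (right), with 95% Wilson intervals, for regions called only in WT and regions touched by a KO region. The regions called only in WT are lower for H3.3-HA (4.27% against 29.3% in WT) and higher for H3K27me3 in both genotypes (31.1% against 22.3% in WT).

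PML touched few WT H3.3-Flag regions of either kind, with a larger share among those called only in WT than among the touched ones. WT PML regions, 484 broad calls covering 515.5 Mb, touched 139 regions called only in WT, or 1.87% (1.59% to 2.21%), against 0.678% (0.576% to 0.799%) of the touched regions and 0.992% of all. Of the 280 WT Flag regions touched by PML, 49.6% (43.8% to 55.5%) were called only in WT. By length, WT PML covered 1.56% of the regions called only in WT, 0.247% of the touched regions and 0.365% of all. The share of the chromosomes in PML regions was not computed, so these values compare Flag regions with each other only. The KO PML list, 13 regions on chromosomes 1 to 19 and X, touched 1 of the 7425 (0.0135%), against 4 of all 28212 WT regions (0.0142%). The regions called only in KO were touched by WT PML more often still, at 6.07%.

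The 139 regions in PML calls carried more heterochromatin marks than the whole set. WT H3K9me3 touched 59.0% of them and KO H3K9me3 54.0%, while H3K27me3 touched 43.2% in WT and 66.9% in KO. Lying wholly inside a PML region in 137 cases, they had a median length of 2 kb and a median signal of 36, and 90 of them touched no protein-coding gene. The longest, chr3:22343001-22361000 (18 kb, signal 21.3), was covered whole by H3K9me3 in both genotypes and by H3K27me3 in KO and not in WT. The next, chr14:32572001-32588000 over the DNA repair gene Ercc6 (16 kb, signal 15.4), was covered whole by H3K9me3 in KO and not in WT.

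Relative to genes, 9.87% of the regions called only in WT held the start of a protein-coding gene, against 21.0% of the touched regions, and 39.0% touched no annotated gene, against 26.3%. Starts were known for only 17274 of the 21631 protein-coding genes, so the shares of regions holding one are lower bounds. The gap in gene starts followed length up to 10 kb. Gene starts were held by 2.57% against 2.90% under 2 kb, 9.55% against 8.86% from 2 to under 5 kb and 16.8% against 17.4% from 5 to under 10 kb. At 10 kb and over the shares were 22.0% and 43.2%. Inside genes of at least 20 kb, the regions called only in WT showed no preferred place: their centres lay at a median of 50.5% of the gene's length, against 49.3% for the touched regions.

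The promoters at these regions resembled those at the touched regions in sequence. Of 1350 RefSeq promoters (250 bases before to 50 after a start) whose start lay in a region called only in WT, 64.9% had a CpG ratio of observed to expected over 0.6. The share was 64.1% for 9843 promoters in touched regions, 21.3% for 21426 in no WT Flag region and 36% for all 32619. The letters GGGCGG on either strand, the core of an Sp1 site, were held by 56.7%, 58.3% and 24.3% (35.9% of all). TATAAA on either strand was held by 7.26%, 8.55% and 16.4% (13.7% of all), and CCAAT, the letters of a CCAAT box, by 40.7%, 35.5% and 38.3% (37.6% of all).

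The longest regions called only in WT lay over single genes or small gene pairs. The longest, chr1:85628001-85716000 (88 kb, signal 38.4), spanned all of Sp100, a core protein of PML nuclear bodies, and the end of its neighbour Sp140. WT H3K9me3 covered 55.7% of it and KO H3K9me3 0%, WT H3 47.7% and KO H3 0%, while H3K27me3 covered 34.1% in WT and 56.8% in KO. In FPKM, Sp100 stood at 0.445 (WT) and 1.43 (KO) by the numbered tables, and at 0.197 and 0.254 by the unnumbered ones.

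The second longest, chrX:169945001-170023000 (78 kb, signal 45.3), held the end of Mid1, a microtubule-associated ubiquitin ligase, and all of Erdr1. WT H3K9me3 covered 64.1% of it and KO H3K9me3 0%, and H3K27me3 0% in WT and 100% in KO. Erdr1 was lower in KO in both table pairs, at 1189 and 499.9 FPKM in the numbered and 50.6 and 14.5 in the unnumbered tables. It lies at the pseudoautosomal end of X, where reads can be shared with Y, so its values are uncertain.

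Some of the longest regions had almost no call in any other list. The 77 kb region chr17:42782001-42859000 in Cd2ap, which codes for an actin-linked adaptor, had a signal of 14.7 and no other mark in either genotype. The 54 kb region chr6:8549001-8603000 over Glcci1 had 3.70% of its length in WT H3K9me3 and the same share in WT H3K27me3, and 0% of each in KO. The 38 kb region chr19:37201001-37239000 over Marchf5, a mitochondrial ubiquitin ligase, was covered by H3.3-HA over 7.89% in WT and 89.5% in KO. The 38 kb region chr19:11522001-11560000 over Ms4a6b and Ms4a4d was covered whole by H3K27me3 in both genotypes, and both genes stayed under 1 FPKM in all 4 tables.

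The regions with the highest signal were of another kind: 9 of the 10 were 1 kb long. The highest, chr11:3153001-3155000 (2 kb, signal 225.1), lay in Sfi1, a centrosome protein gene, and another at chr11:3186001-3187000 (signal 125.4) lay in the same gene. Both were covered whole by H3K9me3 in KO and not in WT. They belonged to a run of 9 consecutive regions called only in WT over 98 kb, of which KO H3K9me3 covered 78.6% and WT H3K9me3 0%. Read mapping and copy number at these sites were not tested.

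Regions called only in WT followed each other along the chromosome in runs, in the order of all WT H3.3-Flag regions. Of the 7425, 3247 stood alone between touched regions, and 2244 belonged to 584 runs of 3 or more. How many such runs a share of 26.3% would give by itself was not computed, so these counts do not measure clustering. The longest run held 22 regions over 4033 kb of chromosome 3 (11174001 to 15207000), with 115 kb called in all. It included E2f5, a cell cycle transcription factor, the ribosome biogenesis gene Rbis and Car13, a carbonic anhydrase. H3K9me3 covered 49.5% of this span in WT and 2.11% in KO, and H3K27me3 covered 21.3% and 21.8%. WT PML covered 47.6% of it. The KO PML list covered 0%, which follows from the lack of PML in those cells and is no change particular to this span.

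A run of 12 regions covering 143 kb lay at Cdkn2a and Cdkn2b, whose products p16, p19 and p15 halt the cell cycle and are central to senescence of cultured fibroblasts. The 30 kb region chr4:89282001-89312000 (signal 26.7) held the starts of both genes, and the 35 kb region chr4:89372001-89407000 had a signal of 34.8. From chr4:89233001-89534000, a stretch of 301 kb, no region was called in any of the 6 KO lists. In WT, the same stretch held 142 kb of H3.3-Flag, 96 kb of H3K27me3, 54 kb of H3K9me3 and 5 kb of H3.3-HA. Of stretches of 100 kb or longer without a KO call there were 2056, 421 Mb together, and 289 of them were at least as long as this one. A region called only in WT lay in 667 of the 2056 and in 99 of the 289. Ranked by H3.3-Flag called only in WT, the stretch at Cdkn2a and Cdkn2b came first with 142 kb, and the next held 77 kb.

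RNA of both genes was present in KO cells. By the numbered tables Cdkn2a stood at 42.8 FPKM in WT and 66.1 in KO, and at 71.2 and 91.6 by the unnumbered ones. Cdkn2b stood at 8.21 and 15.8, and at 56.9 and 93.0. Both were higher in KO in both table pairs, by 0.61 and 0.36 for Cdkn2a and by 0.87 and 0.70 for Cdkn2b on the log2(FPKM + 1) scale, all under the 2-fold mark. Copy number of the locus was not tested, as input reads were not used here.

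The stretch that held Sp110, Sp140 and the first part of Sp100 was the longest of the 10 such stretches with the most H3.3-Flag called only in WT. Over 713 kb (chr1:84953001-85666000), WT lists called 713 kb of H3K9me3, 603 kb of H3, 408 kb of H3.3-HA, 387 kb of PML and 43 kb of H3.3-Flag, and KO lists called nothing. Others were the stretches at Cd2ap (110 kb), Glcci1 (58 kb) and the part of the chromosome 3 run with E2f5, Rbis and Car13 (71 kb). Of all regions called only in WT, 33.5% lay in stretches of at least 100 kb without a call in the other 5 KO lists, close to 31.7% of the touched regions. Read mapping and copy number in the named stretches were not tested.

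**Figure D4:**
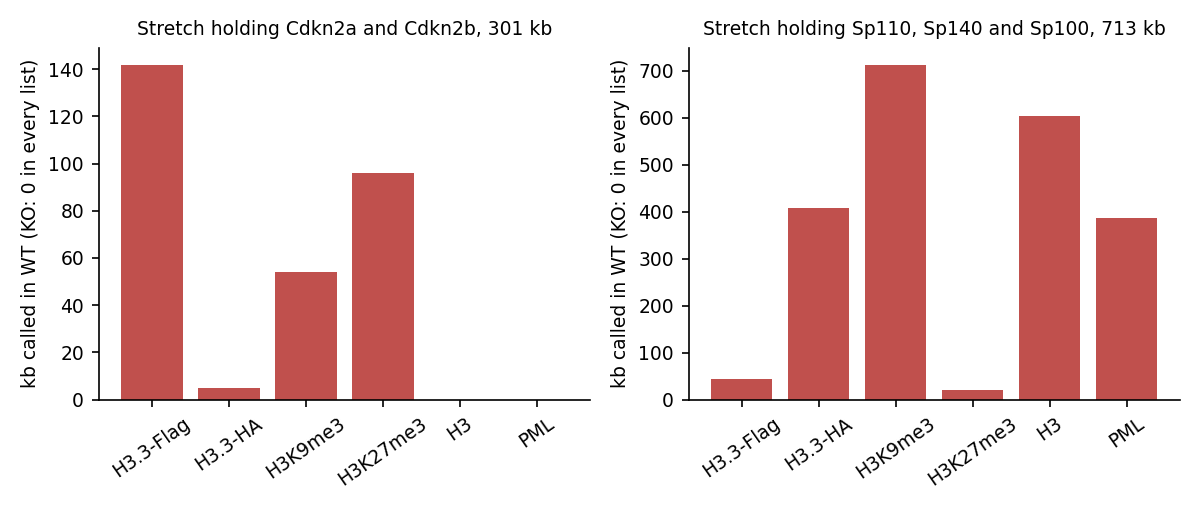
Kilobases called in each WT list inside 2 stretches in which no KO list held a region, one with Cdkn2a and Cdkn2b (301 kb) and one with Sp110, Sp140 and the first part of Sp100 (713 kb). H3.3-Flag takes 142 kb and H3K27me3 96 kb of the first, and H3K9me3 all 713 kb of the second. KO values are 0 kb in every list.

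Regions called only in WT covered at least 0.5 of the body of 390 genes, of which 150 code for proteins, and 1092 genes (842 protein-coding) had their start in one. The protein-coding genes covered to this extent were short, with a median of 4.92 kb against 17.3 kb for all. Starts were known for only 17274 of the 21631 protein-coding genes, so counts by start are lower bounds. Taking either rule as a hit, 4.14% of all 21631 protein-coding genes were hit, and 13.7% were touched at all. These percentages are the background for the gene lists that follow.

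Of 29 imprinted genes found in the annotation, 5 were hit (Peg3, Usp29, Ascl2, Kcnq1ot1 and Plagl1), and Sgce and Impact were also touched. This list includes genes that do not code for proteins, such as Kcnq1ot1. Over all annotated genes, coding or not, 2.65% were hit and 8.28% touched. Imprinted genes are expressed from one parental copy, and the silent copy often carries H3K9me3 at its control region. The region at the shared Peg3 and Usp29 start, chr7:6727001-6731000 (4 kb, signal 41.2), had no H3K9me3 in WT and was covered whole in KO. The 50 kb region over Plagl1, chr10:13085001-13135000 (signal 22.0), was covered over 74.0% by H3K9me3 in WT and 24.0% in KO, and over 40.0% and 18.0% by H3K27me3. At Kcnq1ot1, the antisense RNA that silences its cluster, the 5 kb region chr7:143292001-143297000 was covered by H3K9me3 over 60% in WT and 100% in KO. At Ascl2, a trophoblast transcription factor, the 6 kb region chr7:142963001-142969000 had 83.3% H3.3-HA and no H3K9me3 in WT, and no H3.3-HA and 100% H3K9me3 in KO.

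RNA of the imprinted genes did not move together. Peg3, a zinc finger gene, stood at 5.70 FPKM (WT) and 7.71 (KO) by the numbered tables, but at 64.5 and 20.5 by the unnumbered ones. Plagl1 stood at 1.66 and 1.79, and at 20.6 and 9.24. Usp29, Ascl2 and Kcnq1ot1 were under 1 FPKM in all 4 tables.

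In the other lists, 4 of 124 list entries were hit (3.23%), beside the background of 4.14%. Genes shared by lists, such as Daxx and Atrx, were counted once per list. Of 15 genes of PML bodies and their partners, Sp100 was hit and Sp140 and the helicase gene Blm were touched. Of 12 genes for H3.3 and its chaperones, Ubn1, a subunit of the HIRA complex, had its start in a region called only in WT, and Hira was touched. None of the 13 fibroblast markers, 10 macrophage markers, 26 interferon-stimulated genes or 8 stress genes was touched, and all 26 interferon-stimulated genes and all 8 stress genes were covered over at least 0.5 of their body by WT regions touched in KO, as were 20.4% of all protein-coding genes. The fibroblast markers had median levels of 70.8 FPKM (WT) and 43.7 (KO) by the numbered tables and 203 and 120 by the unnumbered ones, and so were present in all 4 tables. The macrophage list stood at a median of 9.32 (WT) and 0.254 (KO) by the unnumbered tables, and at 0 and 0.00217 in the numbered ones. Its part in the RNA results was not tested. Of the remaining lists, none of 6 epithelial or 5 muscle genes was touched, while Tek was hit and Cdh5 touched among 4 endothelial genes, Rbfox3 was touched among 5 neuronal genes, and Postn was hit and Fbn1 touched among 20 matrix genes. Pml itself stood at 15.0 FPKM (WT) and 10.2 (KO) by the numbered tables and at 7.62 and 4.22 by the unnumbered ones, values over the whole gene that do not check the deletion.

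Genes whose start lay in a region called only in WT were expressed at lower levels than those at touched regions. Their median in WT cells was 4.68 FPKM against 9.72 in the numbered tables and 6.47 against 11.5 in the unnumbered ones, with 857 and 6048 genes. Between genotypes they differed little: the median KO minus WT difference of log2(FPKM + 1), over genes with at least 1 FPKM in either genotype, was 0.14 in the numbered (674 genes) and -0.02 in the unnumbered pair (706 genes), against 0.06 and 0.01 over all genes. At least 2-fold lower in KO were 89 of 674, or 13.2%, against a background of 15.7%, and 17 of 706, or 2.41%, against 3.83%. At least 2-fold higher were 35 (5.19%, background 6.50%) and 6 (0.850%, background 1.74%). These 4 shares were all below the background, and so were those of genes with their start in touched regions. For those genes, 15.1% (numbered) and 2.65% (unnumbered) were lower, and 5.08% and 1.11% higher.

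The genes covered over at least 0.5 of their body were lower in KO in the numbered pair, and so were short genes over the whole table. Of 106 such genes, 37 (34.9%) were at least 2-fold lower and 5 (4.72%) higher, with a median difference of -0.51. Of the 75 covered genes under 10 kb, 31 (41.3%) were lower by 2-fold or more and the median stood at -0.76. All genes of that length had 33.6% lower and a median of -0.49, and those covered by touched regions 32.4% and -0.45. Covered genes of 10 kb and over had a median of 0.17, beside 0.15 for all genes of that length, and 6 of 31 (19.4%) were lower, beside 9.6% of all. In the unnumbered pair the median was -0.12 over 112 covered genes, with 6 (5.36%) at least 2-fold lower and 1 (0.893%) higher. All genes had a median of 0.01, with 3.83% lower and 1.74% higher, and genes covered by touched regions 0.04, 3.39% and 2.10%. By length, covered genes had medians of -0.17 under 10 kb (81 genes) and -0.11 at 10 kb and over (31 genes). All genes of those lengths had -0.04 and 0.02, and genes covered by touched regions -0.04 and 0.08. The summed FPKM of the numbered tables was 948032 in WT and 409078 in KO, so the 2 tables of that pair were not on an equal footing.

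By either rule, body or start, 857 protein-coding genes hit by regions called only in WT were measured in both pairs. This set differs from the 857 genes taken by start above. Of these protein-coding genes, 19 were higher and 65 lower in KO in both pairs with at least a 2-fold difference in 1. The shares were 2.22% and 7.58%, beside a background of 1.78% and 5.07% of all 19818 protein-coding genes in both pairs. Among genes with at least 1 FPKM in any of the 4 tables, the shares were 2.57% and 8.78%, near the 3.02% and 8.62% of all such genes. At least 2-fold in both pairs, 1 gene was higher (0.117%, background 0.126%) and 3 were lower (0.350%, background 0.399%). Only Fv1 was at least 2-fold higher in both. It is a retroviral restriction gene of endogenous retroviral origin, its body lay wholly in a region called only in WT, and it stood at 0.843 FPKM (WT) and 4.39 (KO) by the numbered tables and at 3.66 and 8.86 by the unnumbered ones. B3gnt5, a glycolipid synthesis enzyme, stood at 0.0186 and 2.81 and at 1.68 and 4.18. Tfrc, the transferrin receptor, stood at 11.0 and 24.8 and at 5.94 and 12.7, with its start in the 2 kb region chr16:32608001-32610000. Ptprk, a receptor phosphatase, stood at 11.2 and 31.7 and at 10.6 and 18.1. The same direction was found for Clcn5, an endosomal chloride transporter, at 1.97 and 5.32 and at 20.6 and 34.2.

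Among these protein-coding genes 3 were at least 2-fold lower in KO in both pairs: Trnp1, Ccl27a and E030030I06Rik, the last named after its values were seen (2.66 and 0.724 FPKM, and 1.64 and 0.134). Trnp1, a nuclear protein gene of neural progenitors, stood at 9.91 and 4.09 FPKM in the numbered and at 18.6 and 3.5 in the unnumbered tables. The chemokine gene Ccl27a stood at 10.2 and 3.10, and at 4.88 and 0.262. Mmp23, a matrix metalloproteinase, stood at 32.4 and 2.75, and at 91.5 and 50.8. Rgs10, a regulator of G protein signalling, stood at 60 and 8.31, and at 9.25 and 6.82, and the receptor gene Ror1 at 8.44 and 0.547, and at 7.35 and 4.78.

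The most abundant RNAs among these genes included several that agreed poorly between pairs. Postn, which codes for the matrix protein periostin and is a fibroblast product, had its start in the 5 kb region chr3:54358001-54363000 and was lower in KO in both pairs, at 325.4 and 178.8 FPKM and at 1437 and 445.6. Atp5e, a subunit of ATP synthase, stood at 3410 and 128.1 in the numbered tables but at 374 and 294.6 in the unnumbered ones. Sem1, a small proteasome subunit gene lying whole in a 21 kb region, stood at 1207 and 254.4, and at 271.6 and 257. Slc25a5, whose promoter with 14 CG is printed above, stood at 295.5 and 382.4, and at 151.7 and 160.8. Sprr2k, with the TATAAA promoter, stood at 1468 and 3.08, and at 2.94 and 3.69.

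**Figure D5:**
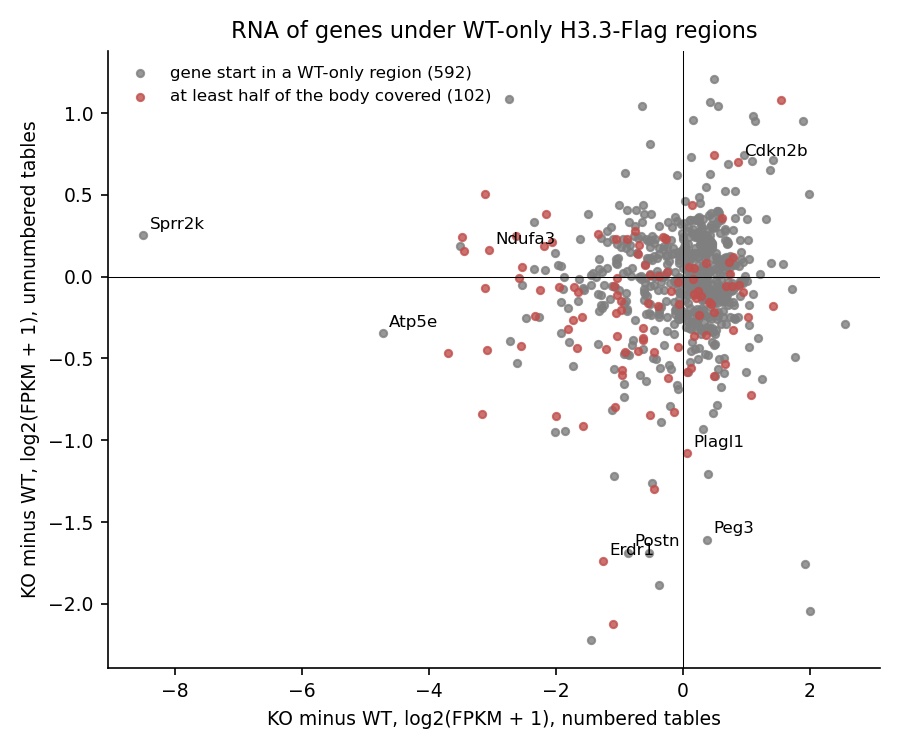
KO minus WT difference in log2(FPKM + 1) for genes under regions called only in WT, in the numbered tables (horizontal) and the unnumbered tables (vertical), 1 point per gene with at least 1 FPKM in either genotype of both pairs: 102 genes with at least 0.5 of the body covered and 592 with their start alone in such a region. Differences spread wider along the numbered axis, where Sprr2k reaches -8.49, and Postn and Erdr1 lie below 0 on both axes.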

How the data were processed

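ChIP and RNA samples of WT and Pml-null fibroblasts, 20 in all, were used as deposited. Per the submitters' processing notes, reads were processed with Cuffdiff 2.2.1, Cufflinks 2.2.1, TopHat2 2.0.8b and Bowtie 1.0.0 on mm10. The tool that called regions is not given in the sources used here, nor are its settings. The region lists deposited by the authors came in 1 kb bins with a signal and a score per region, and with a score alone for H3 and PML. RNA was deposited as FPKM, with the 3 numbered replicates pooled in 1 table per genotype.

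Overlaps of at least 1 bp, covered lengths and gaps were computed with Python 3.11.15, numpy 2.4.6, pandas 2.3.3 and scipy 1.17.1, and figures with matplotlib 3.10.9. The overlap code was checked on simulated intervals. Regions outside chromosomes 1 to 19 and X were left out. Genes and promoters came from RefSeq (GRCm38.p6). Of 22602 genes, 99.35% matched it by symbol or synonym, and 267 or 271 table lines naming several genes were left out with the repeated names. Differences in RNA are KO minus WT, on the log2(FPKM + 1) scale, for genes with at least 1 FPKM in either genotype, and 2-fold is a description. No sequence at region centres was read, as no genome was used here.

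Genes were named by rule: those under the 10 longest and 10 strongest regions and the longest runs, the 10 with the highest WT FPKM, the 10 highest and 10 lowest KO minus WT differences with the same sign in both pairs, and members of the gene lists. The regions, lists and rules were chosen with earlier results of these data known.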

Additional observations from a re-analysis of the deposited data

Results flagged for a closer look

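Among the named genes hit by regions called only in WT, 4 moved in opposite directions in the 2 RNA table pairs with a difference of at least 2-fold in 1 of them. These differences between pairs were not tested, since each pair gives 1 value per genotype. On the log2(FPKM + 1) scale, KO minus WT was -8.49 in the numbered and 0.25 in the unnumbered pair for Sprr2k, and -3.04 and 0.16 for Ndufa3, a subunit of respiratory complex I. It was 0.0703 and -1.08 for Plagl1, and 0.38 and -1.61 for Peg3. The median over genes with their start in a region called only in WT also had opposite signs, at 0.14 and -0.0243, as did that over genes touched by these regions and by no other WT region, at 0.11 and -0.0381.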

How the results depend on the processing

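No paired analysis was possible because the numbered replicates are pooled in 1 table per genotype and every ChIP target has 1 library per genotype. Of 116 values under other settings, 64 stayed within the interval or the 1.5-fold range of the main value, 50 moved and 2 changed sign. The cause of the moves was not tested. Counting regions covered by under 0.5 in KO as WT only gave 47.9 Mb, chromosomes 10 to 19 alone gave 3303 regions and 11.4 Mb, and a WT signal of at least 30, chosen after seeing the data because the planned minimum of 3 removed no region, gave 10.8 Mb.

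Values are given for WT and then KO. With a signal of at least 3 in the other list, H3K9me3 touched 6.14% in WT, H3K27me3 29.0% and 24.2%, and H3.3-HA 0.943% in KO. Coverage of the length was then 3.75% and 1.45% for H3.3-HA, 5.44% for WT H3K9me3, and 23.2% and 20.6% for H3K27me3. This minimum was not run for H3 and PML, whose lists carry no signal. With at least 0.5 of the region covered, the shares were 3.35% for WT H3.3-HA, 12.5% for WT H3K9me3, and 29.1% and 26.1% for H3K27me3. On chromosomes 10 to 19 the shares touched were 3.63% and 15.8% for H3.3-HA, 12.3% and 15.3% for H3K9me3, 29.8% and 23.8% for H3K27me3, 12.2% and 19.6% for H3, and 1.42% for WT PML. Length shares there were 2.98% and 17.6% for H3.3-HA, 9.57% and 12.7% for H3K9me3, and 20.4% for KO H3K27me3. Regions of 5 kb or longer gave 8.09% and 15.8% for H3.3-HA, 17.9% for WT H3K9me3, 28.5% for WT H3K27me3 and 1.58% for WT PML. Regions over 5 kb from a KO region gave a KO H3K27me3 length share of 24.0%.

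The gene rule set the gene results: 1092 genes had their start in a region and 2296 were touched by these regions alone. In the numbered pair, the median RNA difference of covered genes turned from negative to 0.14 by gene start and 0.11 by any base, and to 0.17 for genes of 10 kb and over, chosen after seeing the data. It was -0.89 with a minimum of 5 FPKM and 0 with none. The share at least 2-fold lower was 13.2%, 14.9%, 19.4% (9.6% of all genes of that length) and, with no minimum, 20.4%. In the unnumbered pair the median was -0.0243 by gene start, -0.0381 by any base and -0.0471 with no minimum. The share lower by gene start was 2.41%, and the share higher for genes of 10 kb and over was 0%.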

Other observations

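Regions called only in KO numbered 2751. WT H3.3-HA touched 1.93% of them and KO H3.3-HA 16.0%. WT H3K27me3 touched 39.0% and KO H3K27me3 28.1%, beside 31.1% and 27.7% of the regions called only in WT, and H3K9me3 touched 21.4% in WT and 26.9% in KO. A protein-coding gene start was held by 4.62%. Both kinds of region called in 1 genotype had a lower share with WT H3.3-HA (1.93% and 4.27%) than the WT regions touched in KO (29.3%).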
